A study of Mus musculus with 59 samples.

Results

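The genes described here are 33 mouse genes of the unfolded protein response and of stress in the endoplasmic reticulum (ER), measured in the prefrontal cortex of young mice. They were chosen by symbol, as the rows whose Ensembl identifier carries a listed symbol and whose normalised count reached 10 in at least 4 libraries. The symbols were listed with earlier results of these data known. All 33 were among the 18088 genes of the table and all 33 passed this filter, as did 17891 genes in all. By role they are 3 stress sensors, 14 genes of the ATF6/XBP1 chaperone arm, 8 genes of ER-associated degradation (ERAD) and of protein entry into the ER, and 8 genes of the ATF4 arm. Trib3 lay nearest the floor, with a mean level under 10 and 20 libraries at 10 or more.

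Proteins that are secreted or placed in membranes fold inside the ER, and 3 sensors in its membrane respond when unfolded protein builds up. IRE1 (Ern1) splices the messenger of Xbp1, ATF6 (Atf6) is cut to release a transcription factor, and both then raise chaperones, disulfide isomerases and degradation factors. PERK (Eif2ak3) phosphorylates the initiation factor eIF2α, which slows translation and favours ATF4, a transcription factor of amino acid supply, redox defence and, under lasting stress, of CHOP (Ddit3). Kinases other than PERK also act on eIF2α, so ATF4 targets answer to amino acid shortage and mitochondrial stress as well. In neurons the pathway serves a large traffic of receptors, channels and secreted peptides.

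The study sequenced poly(A) RNA of the prefrontal cortex of C57BL/6J mice at postnatal day 25 in 59 libraries. Mice were heterozygous (HT, 29 libraries) or wild type (WT, 30 libraries) for Naa15, the auxiliary subunit of the N-terminal acetyltransferase NatA. Nursing dams passed on fluoxetine, a serotonin reuptake inhibitor (20 libraries), lithium, a mood stabiliser (20 libraries), or vehicle (19 libraries) from day 3 to day 24. Genotype, treatment and sex made 12 groups of 5 libraries, of which that of HT vehicle males held 4. The labels give neither doses, litters nor the kind of Naa15 allele. The p-values rest on the spread between libraries, each taken as independent. Drugs reached the pups through the dams, so libraries that share a dam could make the p-values of the drugs too small. This could not be checked. Naa15 itself had a normalised count of 1686 ± 126 in HT and 1661 ± 136 in WT libraries (SD, n = 29 and 30), and HT differed from WT under vehicle by -0.03 ± 0.041 (adjusted p = 0.895). Gene-level values of the targeted gene thus do not check the genotype labels.

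Libraries held 24.99 to 32.87 M reads with a median of 29.11 M. Values are read counts divided by the authors' size factor of each library, called normalised counts below. Differences are on the scale log2(value + 1) with the SE of a limma fit over all 12 groups. A gene "rose" or "fell" only where its p, adjusted over all genes tested, was under 0.05 (limma-trend, Benjamini-Hochberg). A count such as 20 of 20 gives the libraries that differed in the stated direction from the mean of the matching comparison group. In bulk tissue, fewer cells of a type and less RNA per cell cannot be told apart. The 6 neuronal markers together stood at 229100 to 328400 in every library, and 5 choroid plexus markers at 68.7 to 3069. Sums of other markers spanned wide ranges between libraries, 39480 to 221700 for oligodendrocytes, 2606 to 15930 for striatum and 944.5 to 13320 for olfactory bulb. The part of this spread in the differences and correlations below was not tested.

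Some libraries stood apart, which touches most results below. On the first principal component the 5 HT fluoxetine females and every lithium library, 25 in all, lay at -31.6 to -14.9, and the other 34 libraries at -2.74 to 27.6. The mitochondrial chromosome gave a median of 7.98% of the reads in these 25 libraries and 5.84% in the other 34. Their values also leaned to genes of low GC content, by a log2 slope of -0.255 to -0.0569 per 10 points of GC, against -0.0627 to 0.191 in the others. Since every lithium library and no vehicle library is among the 25, a response to lithium and this property of the libraries cannot be told apart. Fluoxetine can be set against vehicle within the 34 libraries, and lithium against fluoxetine within the 25, in HT females.

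Short promoter elements bound by the factors of each arm were looked for, and those found are printed here because the arms compared below differed in how many members hold them. RefSeq windows (GRCm38.p6) from 250 bases before to 50 bases after the start were held for 29 of the 33 members, not for Atf6, Hyou1, Manf and Derl1. The ER stress response element, which ATF6 binds with NF-Y, was searched as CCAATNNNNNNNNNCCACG on both strands and occurred in 37 of 27025 genes (0.137%). It occurred in 6 of 12 genes of the chaperone arm, in 1 of 7 ERAD genes and in 0 of 8 genes of the ATF4 arm. Sequences run 5′ to 3′ on the strand of the gene, capitals mark the element, and an element on the opposite strand reads as its reverse complement.
Hspa5, chr2:34772020-34772048, plus strand: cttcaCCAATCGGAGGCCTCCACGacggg
Hsp90b1, chr10:86705633-86705661, minus strand: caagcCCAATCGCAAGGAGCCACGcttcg
Hsp90b1, chr10:86705528-86705556, minus strand: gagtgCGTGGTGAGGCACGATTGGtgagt
Calr, chr8:84847070-84847098, minus strand: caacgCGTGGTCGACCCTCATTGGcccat
Creld2, chr15:88819515-88819543, plus strand: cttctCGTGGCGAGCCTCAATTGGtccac
Dnajc3, chr14:118937822-118937850, plus strand: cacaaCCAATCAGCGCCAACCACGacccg
Pdia6, chr12:17266486-17266514, plus strand: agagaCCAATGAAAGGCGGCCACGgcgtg
Syvn1, chr19:6046527-6046555, plus strand: cgcaaCCAATCGGCGGTAGCCACGggaac

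The sites began 44 to 212 bases before the RefSeq start. GENCODE places the start of Hspa5 at 34771970, so that its site falls inside the annotated gene. The C/EBP-ATF response element, bound by ATF4, was searched as TGATGNAA on both strands and occurred in 4.51% of all genes. It occurred in 4 of 8 genes of the ATF4 arm, in 0 of 12 of the chaperone arm and in 1 of 7 ERAD genes, Herpud1.
Atf3, chr1:191183431-191183448, minus strand: cgcacTTGCATCAccaag
Chac1, chr2:119351044-119351061, plus strand: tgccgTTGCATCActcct
Trib3, chr2:152344034-152344051, minus strand: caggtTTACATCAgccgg
Asns, chr6:7693220-7693237, minus strand: ccacaTGATGAAActtcc
Herpud1, chr8:94386312-94386329, plus strand: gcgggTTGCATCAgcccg

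The UPR element, searched as TGACGTG on both strands, occurred in 2.22% of all genes and in 1 of the 29 members, Hspa5, whose element is printed in the same way. It began 157 bases before the RefSeq start.
Hspa5, chr2:34771928-34771944, plus strand: agcaaTGACGTGagttg

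A match of letters is a description and shows no binding.

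Per kilobase of exon, the most abundant member was Calr, which encodes the calcium-binding chaperone calreticulin, with a mean normalised count of 4433 per kb. Hsp90b1 (GRP94), Hspa5 (BiP, the main Hsp70 of the ER) and Pdia3, a disulfide isomerase of glycoproteins, followed at 2765, 2033 and 1908 per kb. Atf4 stood at 1512 per kb, above Xbp1 at 925 per kb. The sensors lay lower, Atf6 at 414, Eif2ak3 at 185 and Ern1 at 52.7 per kb. The lowest members were Trib3 at 4.20 and Atf3 at 13.5 per kb.

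Fluoxetine was set against vehicle over both genotypes (20 against 19 libraries), to ask which branch of the response differs in pups of treated dams. Genes of the chaperone arm rose, and in the ATF4 arm 1 gene changed, which fell. Of the 33 members 13 rose and 2 fell, where 9.72% of all genes rose and 10.3% fell. In the chaperone arm 9 of 14 rose and 0 fell, with a median of 0.142, while in the ATF4 arm 0 of 8 rose and 1 fell, with a median of -0.011. Of 8 ERAD and translocation genes 4 rose and 1 fell (median 0.019), and of the 3 sensors 0 were called by limma, edgeR or DESeq2, with 0 at an unadjusted p under 0.05. The median over all genes tested was 0.0004. edgeR and DESeq2 on the recovered reads each called 13 up and 5 down, with 9 up and 1 down in the chaperone arm, where Hyou1 passed as lower. The shares of all genes that edgeR and DESeq2 called are not given here.

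Among regulators of the arm, Xbp1 (chromosome 11, 5520659 to 5525893, plus strand, GRCm38), the transcription factor made by the IRE1 branch, had the clearest difference. Its normalised count was 1904 to 2566 with a median of 2116 in fluoxetine libraries and 1501 to 2078 with a median of 1822 in vehicle libraries. The ranges overlapped, but every fluoxetine library lay above the mean of the vehicle group of its own genotype and sex. Xbp1 rose by 0.26 ± 0.035 (adjusted p = 4.91e-07, 20 of 20 libraries), a 1.20-fold level. These are values of the whole gene and do not show how much of the messenger was spliced.

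Hspa5 (chromosome 2, 34771970 to 34777547, plus strand, GRCm38) had 6756 to 8824 with a median of 7739 in fluoxetine and 5181 to 9087 with a median of 6389 in vehicle libraries. Vehicle libraries were the more scattered, with an SD of 1121 against 641.5 among fluoxetine libraries. Hspa5 rose by 0.26 ± 0.051 (adjusted p = 2.57e-04, 20 of 20 libraries). Several of its partners in folding also rose. The DnaJ co-chaperone gene Dnajc3, whose product also inhibits PERK, rose by 0.18 ± 0.028 (adjusted p = 5.14e-06, 20 of 20 libraries). Dnajb11, another DnaJ partner of BiP, rose by 0.12 ± 0.027 (adjusted p = 0.00145, 19 of 20 libraries). Sdf2l1, a partner of that co-chaperone complex, rose by 0.36 ± 0.088 (adjusted p = 0.00240, 18 of 20 libraries). Manf, an ER-resident neurotrophic factor, rose by 0.17 ± 0.035 (adjusted p = 4.70e-04, 19 of 20 libraries).

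Of the disulfide isomerases, Pdia6 rose by 0.17 ± 0.035 (adjusted p = 4.98e-04, 20 of 20 libraries) and Pdia3 by 0.13 ± 0.026 (adjusted p = 2.66e-04, 20 of 20 libraries). Hsp90b1 rose by 0.11 ± 0.030 (adjusted p = 0.00892, 19 of 20 libraries). The other chaperone genes did not pass. Pdia4 stood at 0.09 ± 0.049 (adjusted p = 0.221, 15 of 20 libraries). Calr stood at 0.06 ± 0.032, Creld2 at 0.15 ± 0.070, Dnajb9 at 0.06 ± 0.029 and Hyou1, an exchange factor of BiP, at -0.05 ± 0.021 (adjusted p 0.0564 to 0.178). Hyou1 lay close to the threshold and passed as lower in edgeR and DESeq2 (adjusted p = 0.0491 and 0.0341), in fits of the compared groups alone and of genes with a mean of at least 100 (0.0293 and 0.0424), and without any 1 of 9 libraries (-0.06 to -0.05, adjusted p 0.0225 to 0.04996). Of the 6 chaperone genes with an ER stress response element, Hspa5, Hsp90b1, Dnajc3 and Pdia6 rose, and Calr and Creld2 did not pass. Of the chaperone genes with a promoter window and no such element, Xbp1, Sdf2l1, Dnajb11 and Pdia3 rose, and Dnajb9 and Pdia4 did not pass. The share that rose was thus the same with and without the element. These are few genes, and only exact matches in windows of 300 bases were searched. Whether the element bears on the rise was not tested.

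**Figure D1:**
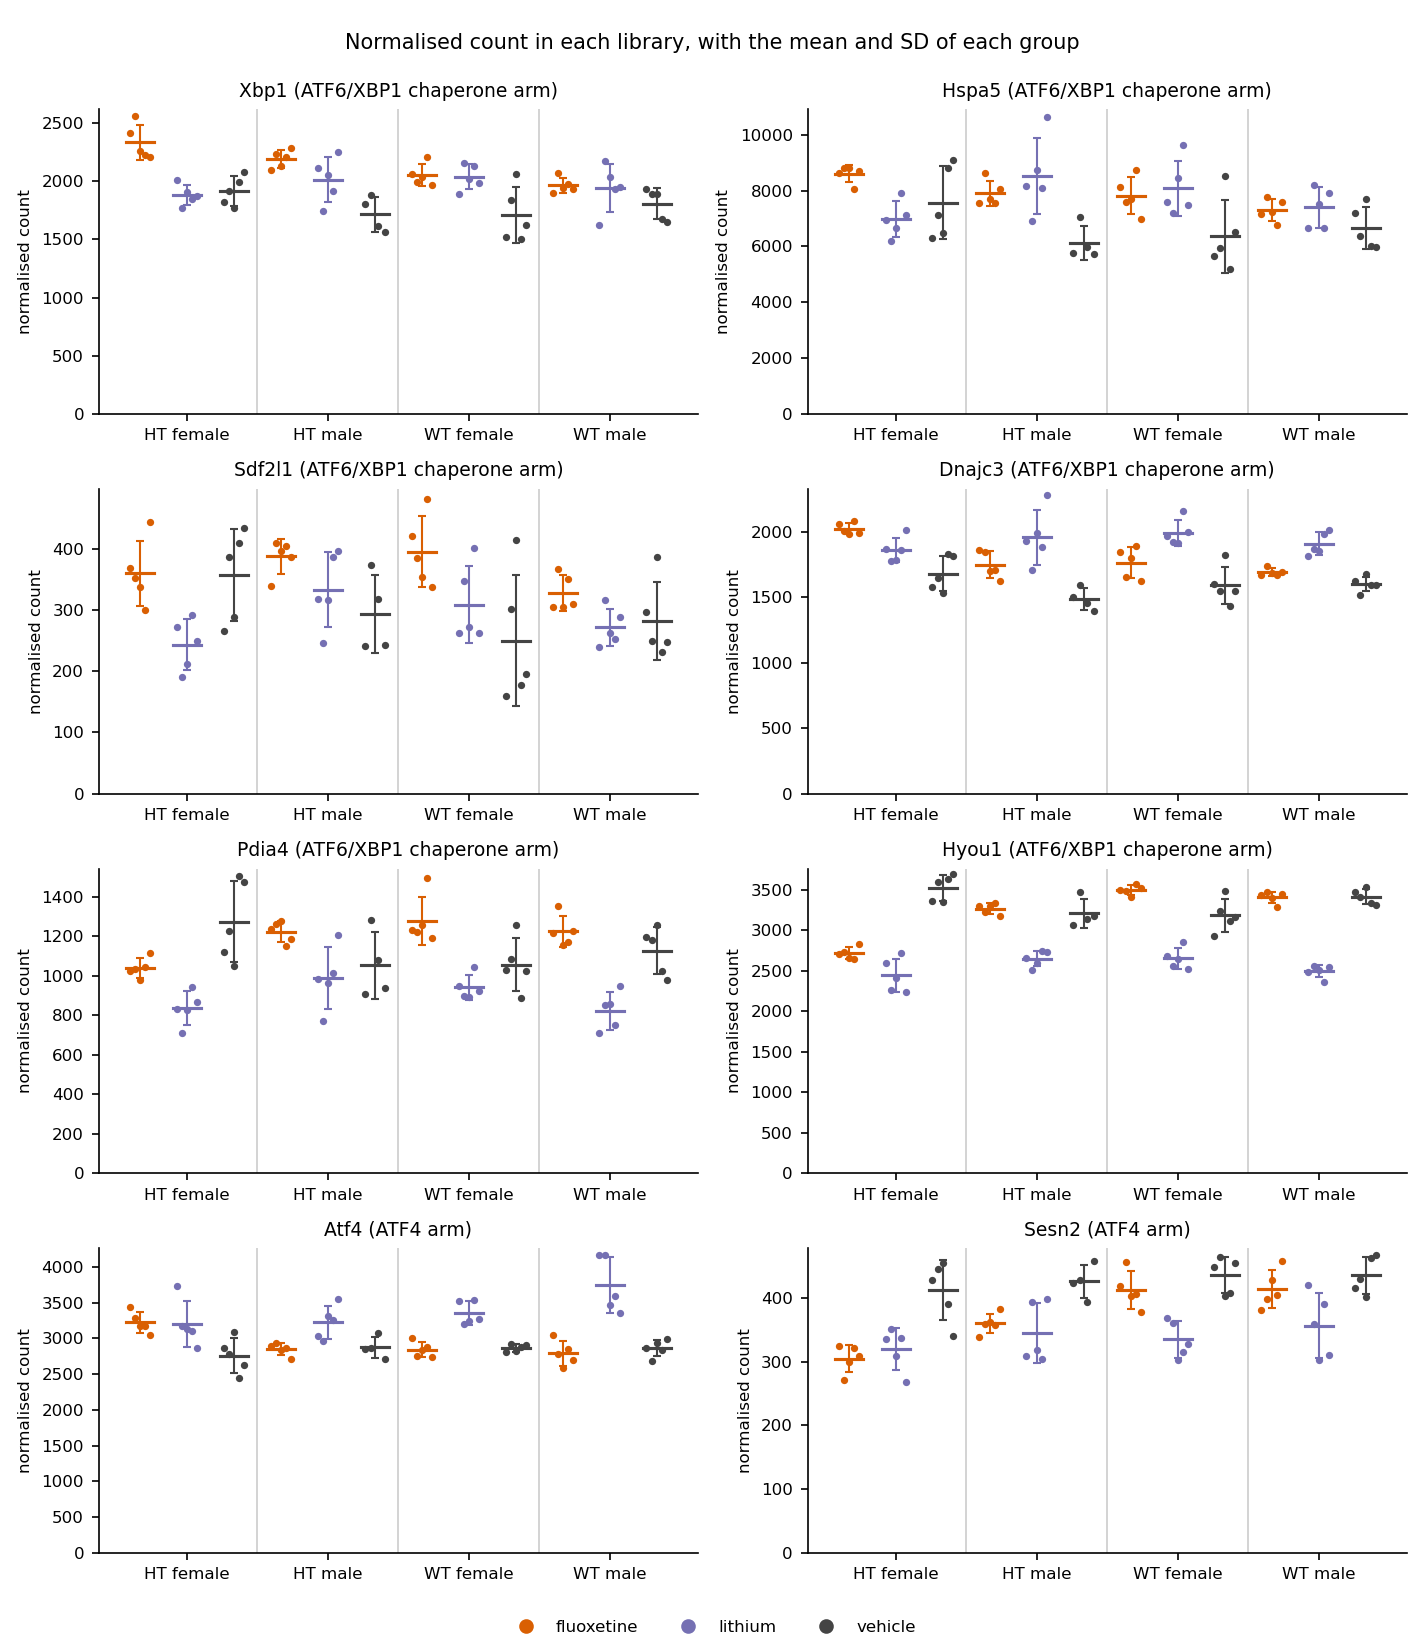
Normalised counts (vertical axis) of 8 members in every library, by genotype and sex (horizontal axis) and treatment (colour), with points for libraries and lines for the mean and SD of each group. Xbp1 and Hspa5 under fluoxetine lie above the means of their own vehicle groups in 20 of 20 libraries.

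In degradation and translocation, Herpud1, which organises the ERAD complex, rose by 0.13 ± 0.033 (adjusted p = 0.00348, 18 of 20 libraries). Derl1, Derl2 and Sec61b, parts of the channels out of and into the ER, rose by 0.06, 0.09 and 0.11 (adjusted p 0.00394 to 0.0175). Syvn1, the ubiquitin ligase of ERAD, fell by 0.09 ± 0.024 (adjusted p = 0.00629, 11 of 20 libraries). Sel1l, Edem1 and Ssr1 did not pass, at -0.02 ± 0.024, -0.07 ± 0.028 and -0.02 ± 0.019 (adjusted p 0.0504 to 0.670). Edem1 lay close to the threshold and passed as lower when any 1 of several libraries was left out (adjusted p 0.0184 to 0.0494).

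In the ATF4 arm, Sesn2, a stress-induced inhibitor of mTORC1, had 271 to 458 with a median of 379 under fluoxetine, against 341 to 468 with a median of 429 under vehicle, and fell by 0.20 ± 0.042 (adjusted p = 3.68e-04, 18 of 20 libraries). Atf4 (chromosome 15, 80255184 to 80257541, plus strand, GRCm38) had 2586 to 3443 with a median of 2868 under fluoxetine and 2442 to 3087 with a median of 2862 under vehicle, a difference of 0.04 ± 0.029 (adjusted p = 0.359, 10 of 20 libraries). Ddit3, the pro-apoptotic factor CHOP, stood at 0.09 ± 0.055 (adjusted p = 0.262, 14 of 20 libraries). Asns, asparagine synthetase, was level at 0.00 ± 0.043 (adjusted p = 0.988), and Chac1, which degrades glutathione, at -0.02 ± 0.081 (adjusted p = 0.887). Ddit4 and the pseudokinase gene Trib3 stood at -0.13 ± 0.090 and 0.14 ± 0.18 (adjusted p = 0.352 and 0.656). Atf3 had a wide spread, 11.4 to 110.2 among vehicle libraries, with 2 WT vehicle females at 104.6 and 110.2, and stood at -0.31 ± 0.16 (adjusted p = 0.183, 14 of 20 libraries). Of the sensors, Ern1, Eif2ak3 and Atf6 stood at -0.04 ± 0.043, -0.01 ± 0.027 and 0.05 ± 0.036 (adjusted p 0.398 to 0.814).

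**Figure D2:**
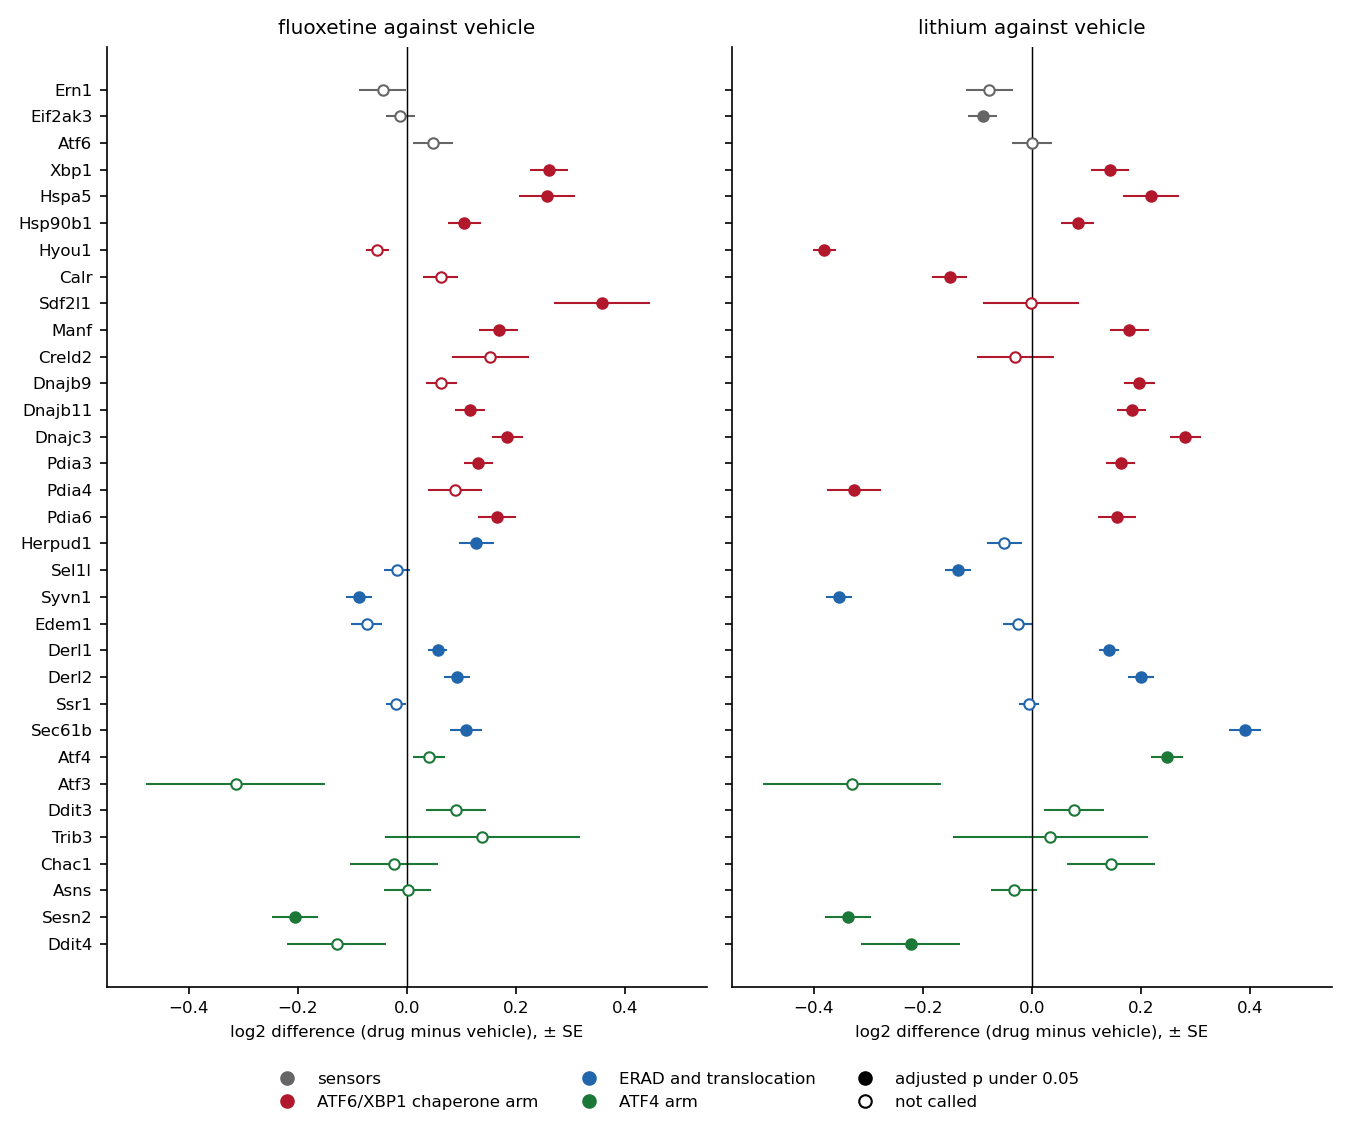
Log2 difference from vehicle (horizontal axis) of each member (down the page, coloured by arm) with its SE, under fluoxetine on the left and lithium on the right, filled where the adjusted p was under 0.05. Under fluoxetine 9 of 14 chaperone genes rose and 0 fell, where 9.72% of all genes rose and 10.3% fell. Under lithium 9 rose and 3 fell, where 32.7% of all genes rose and 30.4% fell.

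Fluoxetine was also set against vehicle within the 34 libraries that did not stand apart, leaving out the HT females of both treatments so that the sexes stayed balanced (15 against 14 libraries). Genes of the chaperone arm still rose. Then 11 members rose and 0 fell, 10 of them in the chaperone arm, where 1.23% of all genes rose and 0.939% fell. Xbp1 rose by 0.25, Hspa5 by 0.27, Sdf2l1 by 0.47, Dnajc3 by 0.15, Pdia6 by 0.16 and Manf by 0.15 (adjusted p 1.49e-04 to 0.0481). Dnajb11, Pdia3 and Herpud1 rose by 0.12, 0.11 and 0.14, and so did Pdia4 and Calr, which had not passed over all libraries, by 0.21 and 0.14 (adjusted p 0.0268 to 0.0467). All 14 chaperone genes were above 0, Hyou1 at 0.053 included, with a median of 0.152. The ATF4 arm had a median of -0.017 with 2 of 8 genes above 0, and 0 of its genes passed in limma, with 2 at an unadjusted p under 0.05. Hsp90b1, Derl1, Derl2, Sec61b, Sesn2 and Syvn1, called over all libraries, stood at 0.098, 0.048, 0.018, 0.0032, -0.13 and 0.026 and did not pass (adjusted p 0.193 to 0.991).

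Leaving out the HT fluoxetine females alone, which sets 3 fluoxetine groups against 4 vehicle groups with unequal shares of the sexes, left 4 members called, Xbp1, Hspa5, Sdf2l1 and Dnajc3 at 0.22, 0.21, 0.37 and 0.13 (adjusted p 3.17e-04 to 0.0316). With the GC and length slopes of each library as covariates, 4 members rose and 0 fell, Xbp1 by 0.17, Dnajc3 by 0.15, Herpud1 by 0.19 and Eif2ak3, which had stood at -0.01, by 0.10 (adjusted p 0.00359 to 0.0377). The shares of all genes called in these fits are not given here, so these counts are not set against them.

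By genotype, the rise was first examined in WT mice (10 against 10 libraries), none of which were among the 25. Xbp1 rose by 0.20 ± 0.049 (adjusted p = 0.0249, 10 of 10 libraries) and Sdf2l1 by 0.49 ± 0.12 (adjusted p = 0.0302, 10 of 10 libraries), and 0 members fell, where 0.632% of all genes rose and 0.386% fell. Hspa5 stood at 0.23 ± 0.072 (adjusted p = 0.119, 10 of 10 libraries), and every chaperone gene was above 0. At an unadjusted p under 0.05 were 11 of the 14, genes that vary together and are not separate observations, against 11.1% of all genes, and 1 of the 8 ATF4 genes, Atf3. By sex, 10 of the 14 had such a p in WT females, against 11.2% of all genes, and 0 in WT males, against 7.90%. In WT males 12 of the 14 were above 0. The calls of Xbp1 and Sdf2l1 depended on single libraries. Xbp1 missed the threshold without WT fluoxetine female 4, WT vehicle females 1, 4 and 5 or WT vehicle males 4 and 5, each left out alone (0.18 to 0.19, adjusted p 0.0517 to 0.0726). Sdf2l1 missed it without any 1 of 10 libraries (0.42 to 0.48, adjusted p 0.0507 to 0.100). In a fit of the WT fluoxetine and vehicle groups alone neither passed.

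In HT mice (10 against 9 libraries) 14 members rose and 3 fell, where 14.8% of all genes rose and 16.3% fell. Xbp1 rose by 0.32 ± 0.050 (adjusted p = 1.54e-06, 10 of 10 libraries), Hspa5 by 0.29 ± 0.074 (adjusted p = 0.00201, 10 of 10 libraries) and Dnajc3 by 0.25 ± 0.041 (adjusted p = 2.71e-06, 10 of 10 libraries). Sesn2 fell by 0.33 ± 0.061 (adjusted p = 1.98e-05, 10 of 10 libraries), Syvn1 by 0.23 ± 0.034 (adjusted p = 5.94e-07, 9 of 10 libraries) and Hyou1 by 0.18 ± 0.030 (adjusted p = 6.99e-06, 6 of 10 libraries). Among the other members, Pdia6, Pdia3, Manf, Hsp90b1 and Dnajb11 rose by 0.19, 0.19, 0.22, 0.14 and 0.14, Sec61b, Derl2 and Derl1 by 0.23, 0.18 and 0.08, and Herpud1, Dnajb9 and Atf4 by 0.12, 0.13 and 0.11 (adjusted p 2.90e-05 to 0.0431). The calls of Herpud1, Dnajb9 and Atf4 ended without any 1 of 6, 2 and 12 libraries. The HT fluoxetine females are among the 25 libraries that stood apart. In HT males alone (5 against 4 libraries) 1 member rose and 0 fell, where 0.0950% of all genes rose and 0.0671% fell. This was Xbp1 at 0.36 ± 0.073 (adjusted p = 0.0228, 5 of 5 libraries). All 14 chaperone genes were above 0 in HT males, Hspa5 at 0.37 ± 0.11 (adjusted p = 0.171, 5 of 5 libraries) and Hyou1 at 0.03 ± 0.043 (adjusted p = 0.914).

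The genotypes were compared by the interaction with fluoxetine, in which 2 members rose and 3 fell, where 8.97% of all genes rose and 11.7% fell. With 15.2% of the members called in either direction, their share was not above that of all genes. Hyou1 was lower by 0.24 ± 0.042 in the HT response than in the WT response (adjusted p = 3.13e-05), Syvn1 by 0.29 ± 0.048 (1.88e-05) and Sesn2 by 0.26 ± 0.085 (0.0218). Sec61b and Derl2 were higher by 0.24 ± 0.059 and 0.18 ± 0.048 (adjusted p = 0.00241 and 0.00472). Xbp1 and Hspa5 differed by 0.12 ± 0.070 and 0.06 ± 0.10 (adjusted p = 0.231 and 0.747). Within males alone (HT 5 against 4, WT 5 against 5 libraries) the genotype by fluoxetine interaction called 0 of 33 members and 0% of all genes with limma, with 1 member, Xbp1, at an unadjusted p under 0.05. Hyou1 then stood at 0.028, Syvn1 at -0.058, Sesn2 at -0.17, Sec61b at 0.073 and Derl2 at 0.030 (adjusted p 0.888 to 0.965).

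The libraries of those females lay low for Hyou1. Hyou1 had 2709, 2733, 2659, 2648 and 2834 in HT fluoxetine females, against 3362, 3594, 3351, 3641 and 3691 in HT vehicle females. In males it had 3296, 3224, 3298, 3344 and 3178 under fluoxetine, against 3064, 3472, 3138 and 3182 under vehicle. The groups did not overlap in HT females and overlapped in HT males. Within HT, the sex by fluoxetine interaction had 3 members up and 4 down, where 6.59% of all genes rose and 8.59% fell. Hyou1, Calr, Pdia4 and Syvn1 were lower in the female response by 0.40, 0.39, 0.51 and 0.39 (adjusted p 6.71e-06 to 0.00966), and Sec61b, Derl2 and Atf4 higher by 0.39, 0.26 and 0.24 (adjusted p 9.93e-04 to 0.0423), and the call of Atf4 ended without any 1 of 11 libraries (0.20 to 0.24, adjusted p 0.0513 to 0.108). The same interaction in WT called 0 of 33 members and 0% of all genes in limma, edgeR and DESeq2, with 5 members and 6.81% of all genes at an unadjusted p under 0.05. That the sexes differ in HT and not in WT was not tested.

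Over the 4 combinations of genotype and sex, Xbp1 differed from vehicle under fluoxetine by 0.28 ± 0.069 in HT females, 0.36 ± 0.073 in HT males, 0.27 ± 0.069 in WT females and 0.12 ± 0.069 in WT males. Hspa5 differed by 0.20 ± 0.10, 0.37 ± 0.11, 0.31 ± 0.10 and 0.14 ± 0.10 in the same order. The median of the chaperone arm was 0.151, 0.205, 0.143 and 0.082, and that of the ATF4 arm -0.016, 0.015, -0.007 and -0.023. Every median of the chaperone arm was thus above that of the ATF4 arm.

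**Figure D3:**
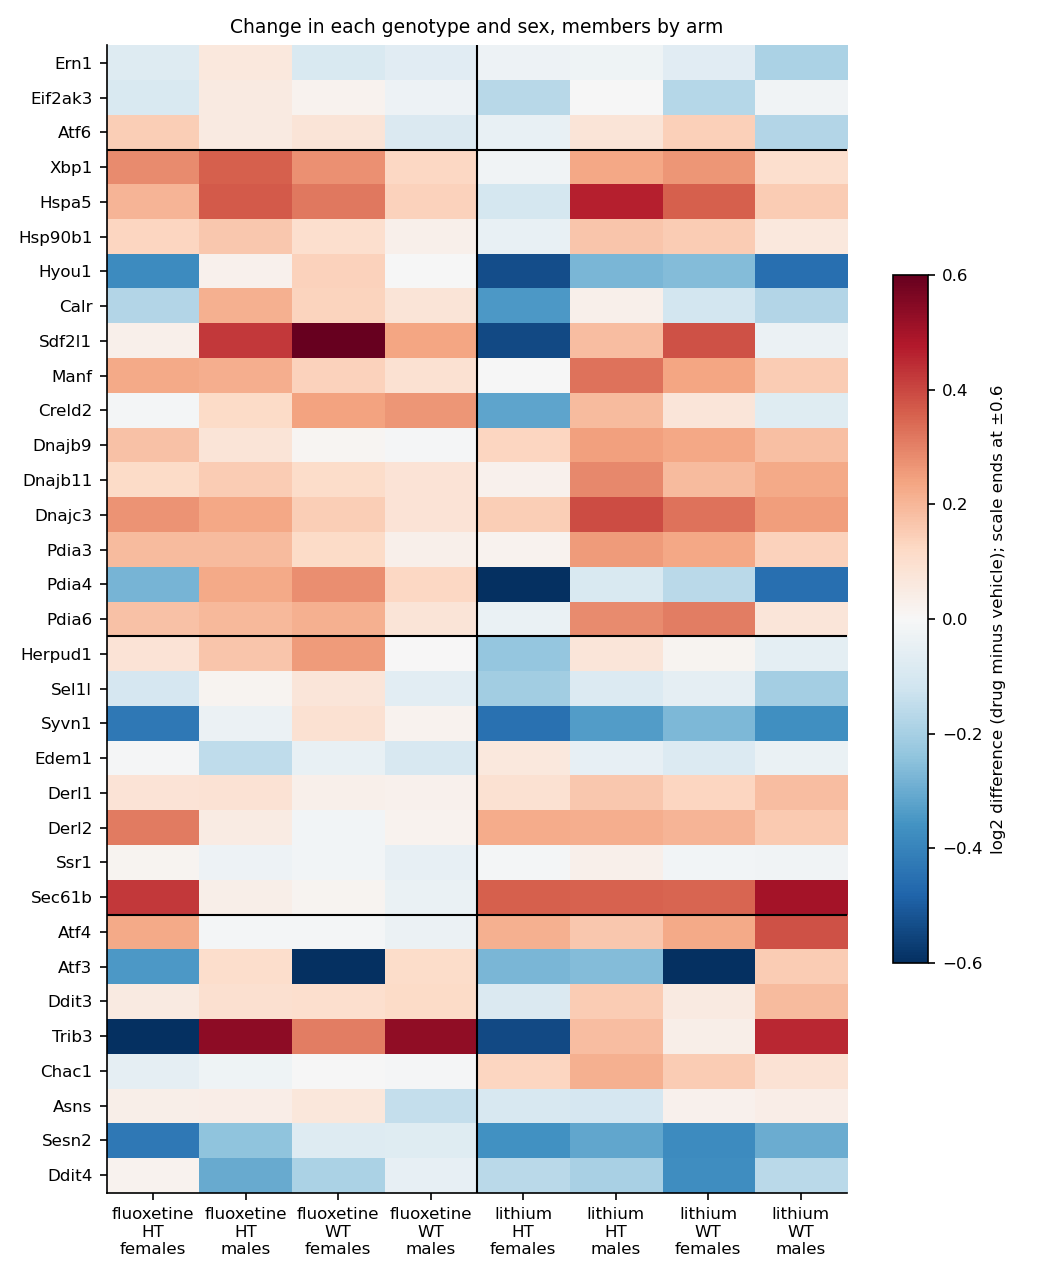
Heat map of the log2 difference from vehicle of the 33 members (down the page, by arm) in HT females, HT males, WT females and WT males (across), under fluoxetine in the left block and lithium in the right, with red above 0 and blue below 0 and the colour scale ending at ±0.6. Hspa5 is red in every column but lithium in HT females, where it stands at -0.10.

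Lithium was set against vehicle next (20 against 19 libraries). Here the arm split. Of the 33 members 13 rose and 8 fell, where 32.7% of all genes rose and 30.4% fell, so the members' share is near that of all genes. In the chaperone arm 9 rose and 3 fell with a median of 0.150, in the ATF4 arm 1 rose and 2 fell with a median of 0.00, and in ERAD and translocation 3 rose and 2 fell. The order of the arms turned with the correction for base composition. With the GC and length slopes of each library as covariates the chaperone median was -0.093 with 10 of 14 genes below 0, 0 rose and 1 fell, and the ATF4 median was 0.200 with 7 of 8 above 0 and 0 called. With each library's GC and length trend removed 7 chaperone genes rose and 5 fell (median 0.058). For these fits with a correction the shares of all genes called are not given.

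Dnajc3 rose most within the arm, by 0.28 ± 0.028 (adjusted p = 1.47e-12, 20 of 20 libraries), followed by Hspa5 at 0.22 ± 0.051, Dnajb9 at 0.20 ± 0.029 and Dnajb11 at 0.18 ± 0.027 (adjusted p 4.06e-08 to 2.39e-04). Pdia3, Pdia6, Manf and Hsp90b1 rose by 0.16, 0.16, 0.18 and 0.08 (adjusted p 4.18e-07 to 0.0140). Xbp1 rose by 0.14 ± 0.035 (adjusted p = 3.43e-04, 15 of 20 libraries). Against them, Hyou1 had 2241 to 2860.0 with a median of 2559 under lithium and 2929 to 3691 with a median of 3351 under vehicle, 2 ranges that did not overlap, and fell by 0.38 ± 0.021 (adjusted p = 4.52e-22, 20 of 20 libraries). Pdia4 fell by 0.33 ± 0.049 (adjusted p = 9.29e-08, 19 of 20 libraries) and Calr by 0.15 ± 0.032 (adjusted p = 5.29e-05, 16 of 20 libraries). Sdf2l1 and Creld2 stood at -0.0024 ± 0.088 and -0.03 ± 0.070 (adjusted p = 0.983 and 0.722). The 8 members that fell had a median GC content of 51.8%, the 13 that rose one of 48.9% and the 12 not called one of 51.4%. The ranges of those that fell (47.6 to 58.7%) and rose (40.6 to 56.3%) overlapped. These libraries lean to low GC, and its part in these directions was not tested.

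Of the ERAD genes, Sec61b rose by 0.39 ± 0.030 (adjusted p = 9.34e-17, 20 of 20 libraries), Derl2 by 0.20 ± 0.024 and Derl1 by 0.14 ± 0.018, and Syvn1 and Sel1l fell by 0.35 ± 0.024 and 0.14 ± 0.024 (adjusted p 1.30e-18 to 2.02e-06). In the ATF4 arm Atf4 had 2871 to 4174 with a median of 3293 under lithium, against 2442 to 3087 with a median of 2862 under vehicle, and rose by 0.25 ± 0.029 (adjusted p = 1.46e-10, 20 of 20 libraries). Its target Sesn2 went the other way and fell by 0.34 ± 0.042 (adjusted p = 8.23e-10, 20 of 20 libraries), at 268 to 421 with a median of 332 under lithium, and Ddit4, an mTORC1 inhibitor of the same arm, fell by 0.22 ± 0.090 (adjusted p = 0.0285, 15 of 20 libraries). Ddit4 missed the threshold without HT vehicle male 3, WT lithium female 2 or WT lithium male 2 (-0.20 to -0.18, adjusted p 0.0541 to 0.0610). Asns, Chac1, Ddit3, Atf3 and Trib3 did not pass, at -0.03, 0.14, 0.08, -0.33 and 0.03 (adjusted p 0.0746 to 0.885). Eif2ak3 fell by 0.09 ± 0.027 (adjusted p = 0.00276, 16 of 20 libraries).

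Of these calls Hyou1 alone passed in the same direction in a fit with the GC and length slopes of each library as covariates, in which 1 member rose, Eif2ak3 at 0.33, and 1 fell, Hyou1 at -0.29 (adjusted p = 0.00920 and 0.0164). The share of all genes called in that fit is not given here. Markers of vessel and meningeal cells were also lower under lithium, with 1 of 5 endothelial genes up and 4 down (median -0.458), 0 of 5 mural genes up and 3 down (-0.462) and 2 of 6 meningeal fibroblast genes up and 4 down (-0.454), where 32.7% of all genes rose and 30.4% fell. Their summed levels were 3639 to 5488 in lithium and 4279 to 6303 in vehicle libraries for endothelium, 3915 to 7590 and 3796 to 7759 for mural cells, and 3141 to 7416 and 3534 to 9116 for meningeal fibroblasts. In the same order of cell types, median sums were 4218, 5118 and 4447 under lithium and 5340, 6317 and 6100 under vehicle. The HT fluoxetine females, which also stood apart and had no lithium, had 4314, 5036 and 4599. Median sums of most other cell types were lower under lithium as well. Those of neurons were 272000 under lithium and 301700 under vehicle, of astrocytes 118100 and 131600, and of microglia 6367 and 7388. Those of choroid plexus, blood and olfactory bulb markers were higher. The part of cell composition in the result was not tested. By genotype, 13 members rose and 7 fell in WT, where 26.6% of all genes rose and 26.3% fell, and 11 rose and 6 fell in HT, where 25.7% rose and 24.9% fell. The genotype by lithium interaction called 0 of 33 members and 0% of all genes with limma, and edgeR and DESeq2 also called 0 of the 33, with 1 member, Atf4, and 5.91% of all genes at an unadjusted p under 0.05.

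The median of the chaperone arm under lithium was -0.043 in HT females, 0.238 in HT males, 0.232 in WT females and 0.088 in WT males. That of the ATF4 arm was -0.129, 0.025, 0.029 and 0.118 in the same order, so in WT males it lay above that of the chaperone arm. Hspa5 differed from vehicle by -0.10 ± 0.10 in HT females, 0.46 ± 0.11 in HT males, 0.36 ± 0.10 in WT females and 0.15 ± 0.10 in WT males. Sex by lithium in HT called 0 of 33 members and 0% of all genes with limma, and edgeR and DESeq2 also called 0 of the 33. All 14 chaperone differences were below 0, with a median of -0.295, and 13 had an unadjusted p under 0.05, against 7.12% of all genes. These counts are a description, since the comparison was chosen after the group values were seen and the 14 genes vary together over libraries (median pairwise r 0.646, given in full below), so that they are not separate observations. In the ATF4 arm 0 of 8 had such a p. Hspa5 had -0.57 ± 0.15 (adjusted p = 0.507) and Hyou1 -0.25 ± 0.060 (adjusted p = 0.507). In WT the same interaction called 0 of 33 members with limma, edgeR and DESeq2 and 0.0838% of all genes, 13 of the 14 chaperone differences were above 0, and 3 had an unadjusted p under 0.05, against 13.3% of all genes.

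Lithium was then set against fluoxetine (20 against 20 libraries). Of the members 7 rose and 11 fell, where 27.7% of all genes rose and 26.2% fell. The share of members called, 54.5%, is thus near that of all genes. Pdia4 was lower under lithium by 0.41 ± 0.049, Sdf2l1 by 0.36 ± 0.087, Hyou1 by 0.33 ± 0.021, Calr by 0.21 ± 0.032 and Xbp1 by 0.12 ± 0.034 (adjusted p 7.35e-19 to 0.00332). Sec61b and Atf4 were higher by 0.28 ± 0.029 and 0.21 ± 0.029 (adjusted p = 8.22e-12 and 2.12e-08). Of the other members called, Syvn1, Creld2, Herpud1, Sesn2, Sel1l and Eif2ak3 were lower by 0.27, 0.18, 0.18, 0.13, 0.12 and 0.08 (adjusted p 6.48e-14 to 0.0215). Dnajb9, Derl2, Dnajc3, Derl1 and Dnajb11 were higher by 0.13, 0.11, 0.10, 0.08 and 0.07 (adjusted p 4.84e-05 to 0.0316), and Dnajb11 missed the threshold without any 1 of 7 libraries. Hspa5 did not pass, at -0.04 ± 0.051 (adjusted p = 0.542, 11 of 20 libraries). In this comparison 15 of the 20 fluoxetine libraries lie outside the 25 that hold every lithium library, so that the drugs differ together with this property of the libraries, and its part in these differences was not tested. With GC and length slopes as covariates 5 members were called, Xbp1, Hyou1, Pdia4 and Hsp90b1 as lower, the first of these at -0.35, and Eif2ak3 as higher at 0.23. The share of all genes called with these covariates is not given. Dnajb9, Derl2, Dnajc3 and Dnajb11 turned below 0 (-0.088, -0.15, -0.020 and -0.028), and Herpud1 and Sesn2 above 0 (0.029 and 0.11). Without the HT females of both drugs, Xbp1 and Creld2 did not pass (-0.053 and -0.14, adjusted p = 0.280 and 0.140).

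In HT females both drugs fall among the 25 libraries, so that the drugs could be compared at like library properties (5 against 5). Here 0.00559% of all genes rose and 0.0503% fell, and of the members 0 rose and 1 fell. Herpud1 had 1234, 1094, 1023, 1108 and 929 in HT lithium females, against 1352, 1263, 1341, 1297 and 1439 in HT fluoxetine females, groups that did not overlap, and fell by 0.32 ± 0.064 (adjusted p = 0.0345, 5 of 5 libraries). That call was lost without any 1 of 8 libraries (-0.34 to -0.27, adjusted p 0.0561 to 0.208).

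Chaperone genes lay lower under lithium in these females, without passing the test. All 14 were below 0 with a median of -0.193, and 12 had an unadjusted p under 0.05, against 10.2% of all genes, again in genes that vary together and in a comparison chosen after the libraries were seen. In the ATF4 arm 4 of 8 were below 0 and 0 had such a p. Hspa5 had 6956, 6198, 6662, 7922 and 7138 under lithium, against 8615, 8807, 8824, 8066 and 8715 under fluoxetine, with no overlap. The difference of Hspa5 was -0.31 ± 0.10 (adjusted p = 0.242, 5 of 5 libraries). Xbp1 had 2014, 1773, 1912, 1851 and 1874 under lithium, against 2414, 2566, 2259, 2225 and 2213 under fluoxetine, again with no overlap. The difference of Xbp1 was -0.31 ± 0.069 (adjusted p = 0.0614, 5 of 5 libraries). Atf4 had 3729, 3178, 3131, 3099 and 2871 under lithium, against 3443, 3282, 3179.8, 3168 and 3051 under fluoxetine, and these overlapped. The difference of Atf4 was -0.01 ± 0.057 (adjusted p = 0.961, 4 of 5 libraries).

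Genotype alone left the members nearly level. Under vehicle (9 HT against 10 WT libraries) limma called 0 of 33 members, as did edgeR and DESeq2, where 0.106% of all genes were called. At an unadjusted p under 0.05 was 1 member, Sdf2l1 at 0.32 ± 0.13 (adjusted p = 0.475, 7 of 9 libraries), against 7.90% of all genes. Hspa5 stood at 0.07 ± 0.074, Xbp1 at 0.05 ± 0.050 and Atf4 at -0.03 ± 0.042. Over all treatments (29 against 30 libraries) 1 member rose and 3 fell, where 5.15% of all genes rose and 9.59% fell. The share of members called, 12.1%, is near that of all genes. Sec61b rose by 0.07 ± 0.024, and Sesn2, Syvn1 and Hyou1 fell by 0.14 ± 0.034, 0.08 ± 0.019 and 0.07 ± 0.017 (adjusted p 0.00267 to 0.0475), and the call of Sec61b ended without any 1 of 37 libraries. Without the fluoxetine females of both genotypes these 4 did not pass (Sec61b, Sesn2, Syvn1 and Hyou1 at 0.011, -0.086, -0.018 and -0.0072, adjusted p 0.247 to 0.897). Between females and males (30 against 29 libraries) Dnajb9 and Dnajc3 were higher in females by 0.08 ± 0.023 and 0.07 ± 0.023 (adjusted p = 0.0356 and 0.0423), 0 members were lower, and 3.55% of all genes rose and 5.20% fell. Both calls ended without the HT fluoxetine groups of both sexes (0.057 and 0.043, adjusted p = 0.367 and 0.512), and on leaving out any 1 of 14 libraries for Dnajb9 and any 1 of 24 for Dnajc3.

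How the members vary together was examined with the group means removed, so that treatment, genotype and sex do not enter. Over 59 libraries the pairs of chaperone genes had a median Pearson r of 0.646, with 90 of 91 pairs above 0. Among pairs drawn from 1790 evenly spaced genes of the table the median was -0.002. Pairs of the ATF4 arm had a median of 0.139 with 24 of 28 above 0, pairs between the arms -0.028 with 50 of 112 above 0, and ERAD pairs -0.008. The chaperone median was 0.664 within the 25 libraries that stood apart and 0.643 within the other 34, and 0.673 with each library's GC and length trend removed. The points are libraries, which share depth and base composition within each set.

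**Figure D4:**
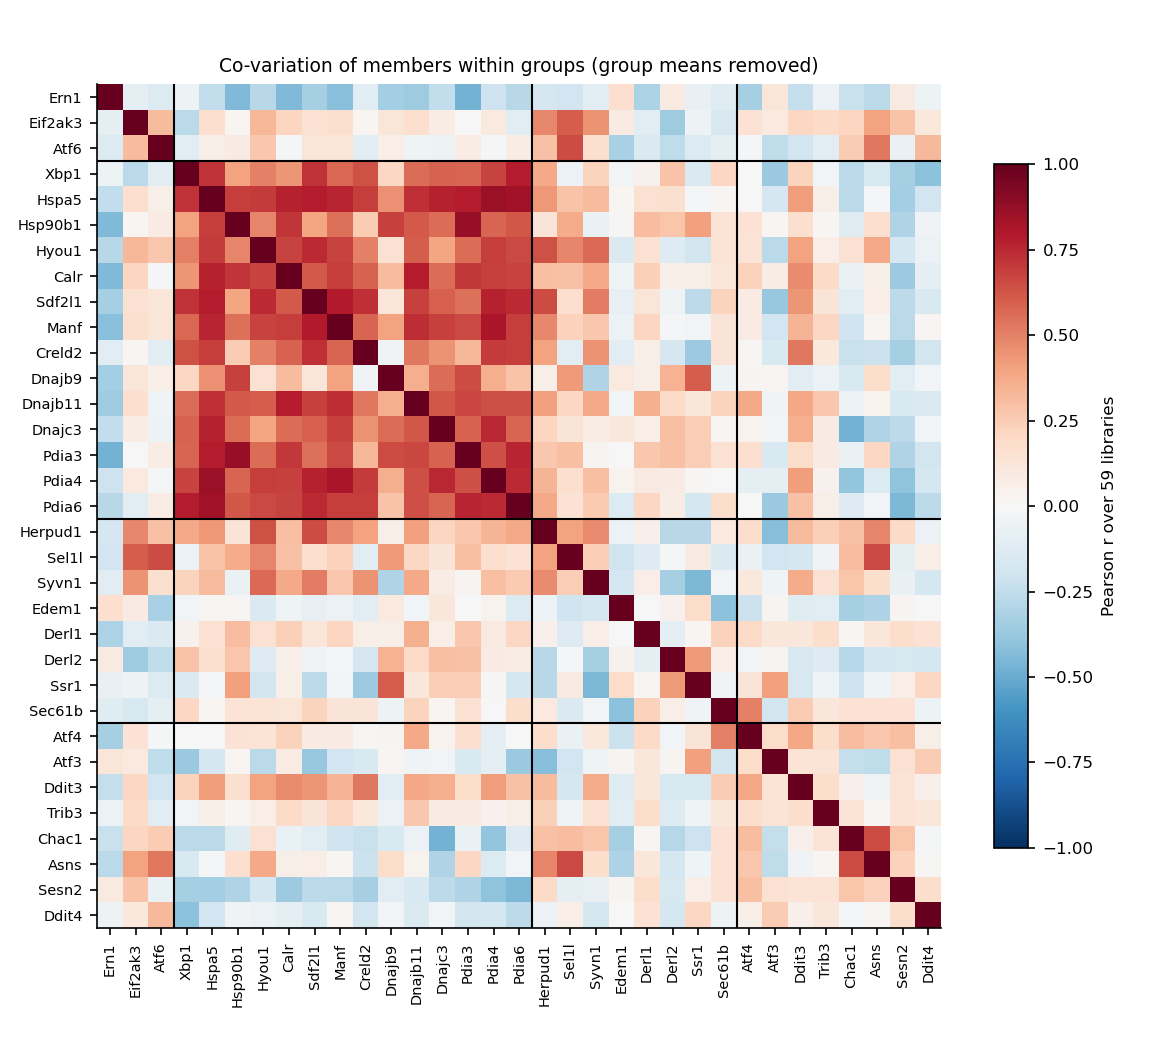
Pearson r between members over 59 libraries after group means were removed, with members ordered by arm on both axes and colour for r from -1 to 1. The chaperone arm forms a block with a median of 0.646, and the ATF4 arm does not join it (-0.028).

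Ranked by their correlation with Hspa5, 12 of the other 13 chaperone genes were within the first 13 of 17890 genes. The outsider among these 13 was Zbtb40, a zinc finger gene, at rank 11 with an r of 0.70, and the remaining chaperone gene Dnajb9 came at rank 79. All 32 members were tested against Hspa5, with permutation p-values adjusted over the 32 pairs. Pdia4 came first with r = 0.860 and Spearman rho = 0.784 (permutation p 1e-05 for each, the smallest the permutations can give, adjusted 2.67e-05 and 3.56e-05), and r = 0.842 without the 2 libraries farthest from the median of Hspa5. It was 0.845 within the 25 and 0.870 within the 34 libraries. Hyou1 (r = 0.702, rho = 0.672) and Calr (r = 0.771, rho = 0.786) had the same p, although both fell under lithium while Hspa5 rose. For Hyou1 r was 0.666 without the 2 farthest libraries, 0.643 within the 25 and 0.773 within the 34, and for Calr it was 0.785, 0.818 and 0.757.

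Of the 13 chaperone genes 13 passed with r above 0 (0.457 to 0.860). Outside the arm 1 of 8 ERAD genes, Herpud1, and 1 of 8 ATF4 genes, Ddit3, passed by Pearson's r. Herpud1 had r = 0.434 and rho = 0.366 (permutation p = 0.00574 and 0.0107, adjusted 0.0122 and 0.0225), r = 0.339 without the 2 farthest libraries, 0.087 within the 25 and 0.623 within the 34. Ddit3, which ATF6 and XBP1 are known to raise as well as ATF4, had r = 0.421 and rho = 0.423 (permutation p = 0.00417 and 0.00348, adjusted 0.00953 and 0.00857), r = 0.323 without the 2 farthest, 0.172 within the 25 and 0.605 within the 34. Both relations were weaker within the 25 libraries than within the 34. Atf4 itself had r = -0.00213 and rho = 0.0166 (permutation p = 0.989 and 0.913, adjusted 0.989 and 0.942), and r = -0.0699 without the 2 farthest, 0.274 within the 25 and -0.273 within the 34. Sesn2 had r = -0.342 and rho = -0.381 (permutation p = 0.026 and 0.0113, adjusted 0.0521 and 0.0225), and -0.440 without the 2 farthest, -0.285 within the 25 and -0.423 within the 34.

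**Figure D5:**
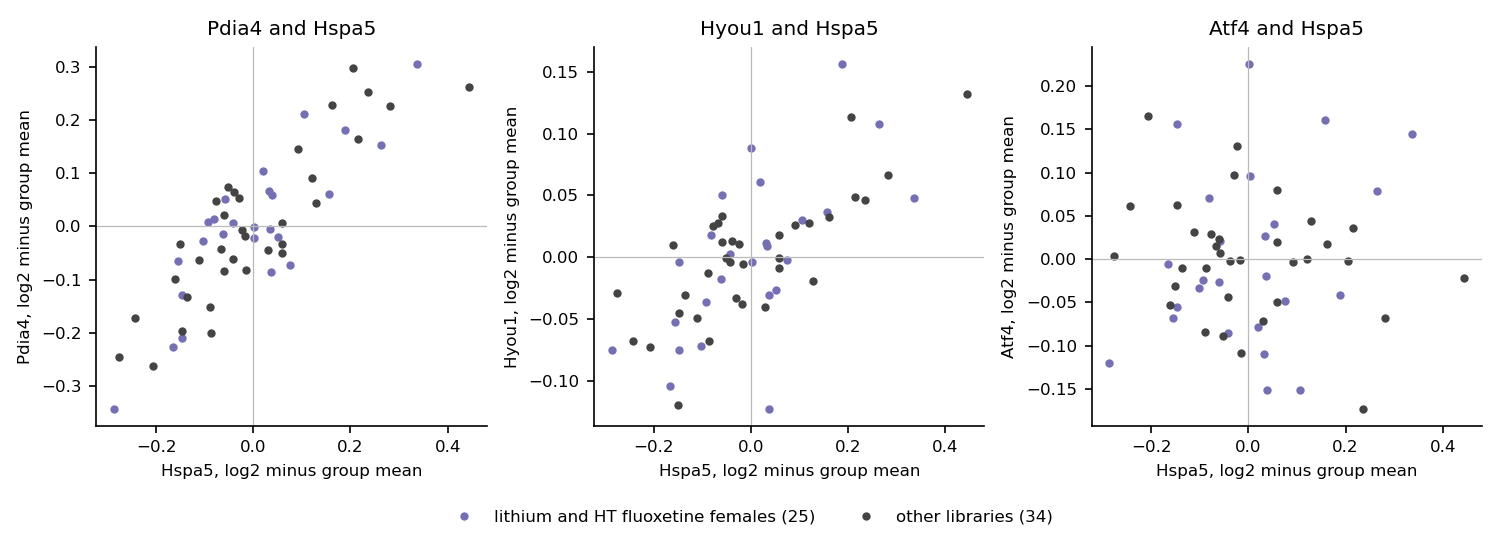
Residual log2 level of chosen members (vertical axis) against that of Hspa5 (horizontal axis) in 59 libraries after group means were removed, with the 25 lithium and HT fluoxetine female libraries marked apart from the other 34. Pdia4 follows Hspa5 in both sets (r = 0.845 and 0.870), and Atf4 does not (r = -0.00213 over all).

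Other genes of the pathway, from lists drawn up beside the members, were counted in the same fits, beside 9.72% of all genes that rose and 10.3% that fell under fluoxetine, and 32.7% and 30.4% under lithium. These lists too were drawn up with earlier results of these data known, so the counts are a description and no separate evidence. Of 20 further ER folding genes 6 rose and 1 fell under fluoxetine, and 9 rose and 7 fell under lithium, near the share of all genes. Sil1, a nucleotide exchange factor of BiP like Hyou1, fell by 0.16 ± 0.027 under fluoxetine and 0.40 ± 0.027 under lithium (adjusted p = 1.43e-05 and 1.36e-18). Ero1lb, an oxidase that recharges disulfide isomerases, rose by 0.11 ± 0.029 under fluoxetine (adjusted p = 0.00369). Of 16 further ERAD genes 5 rose and 2 fell under fluoxetine, and 8 and 5 under lithium, the falls near the share of all genes. Under lithium Os9, a lectin of ERAD, fell by 0.33 ± 0.018 (adjusted p = 3.90e-22).

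Of 17 further genes of translocation 9 rose and 2 fell under fluoxetine, and 13 and 3 under lithium. Spcs1, a signal peptidase subunit, rose by 0.11 ± 0.017 and 0.34 ± 0.017 under these drugs (adjusted p = 1.23e-05 and 6.08e-23). In WT mice under fluoxetine 0 of the genes of these lists of folding, ERAD and translocation passed. Of 31 further ATF4 targets 3 rose, near the share of all genes, and 7 fell under fluoxetine, and 7 and 16 under lithium. Shmt2, of mitochondrial serine metabolism, fell by 0.13 ± 0.026 and 0.38 ± 0.026 (adjusted p = 2.88e-04 and 2.26e-18). Of 17 further sensors and regulators 1 rose and 4 fell under fluoxetine, and 4 and 9 under lithium. Eif2s1, which encodes eIF2α, rose by 0.13 ± 0.023 under fluoxetine and 0.32 ± 0.023 under lithium (adjusted p = 6.03e-05 and 5.16e-18). Of the libraries that stood apart, 5 of the 20 fluoxetine and all 20 lithium libraries enter these counts and differences. The part of that property in the values of these further genes was not tested.

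In WT mice under fluoxetine, outside the libraries that stood apart, 3 of the 31 ATF4 targets rose and 1 fell, where 0.632% of all genes rose and 0.386% fell. The amino acid transporter gene Slc7a5 rose by 0.17 ± 0.041, the transaminase gene Gpt2 by 0.18 ± 0.046 and Jdp2, a partner of AP-1 factors, by 0.24 ± 0.062, and the lipoprotein receptor gene Vldlr fell by 0.13 ± 0.032 (adjusted p 0.0256 to 0.0408).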

How the data were processed

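Poly(A) RNA of 59 prefrontal cortex samples was sequenced from a stranded kit, per the labels' protocols. The submitters' processing notes name the build GRCm38, DESeq2 1.19.11, Salmon 0.11.2 and R 3.6.0. The deposited table holds a normalised signal per gene, which the authors obtained as read counts divided by a size factor. The factors, 0.827 to 1.129, were recovered here, and 100% of values came out as whole reads within 0.01. Symbols and positions came from GENCODE M21 for 18077 identifiers.

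Values were tested as log2(value + 1) with limma 3.58.1 (trend, 12 group means, 47 residual degrees of freedom) on genes at 10 or more in at least 4 libraries. There were 17 comparisons, and 8 more of a drug with vehicle within each genotype and sex, each with p adjusted over all 17891 genes. edgeR 4.0.16 and DESeq2 1.42.0 (R 4.3.3) were run on the recovered reads, and figures drawn with matplotlib 3.10.9 (Python 3.11.15). Scripts were tested on simulated data. Genes were named by membership of the 33, and others as up to 4 called genes of smallest p per list and comparison. The members and lists were chosen with earlier results of these data known. Replicate numbers do not pair the libraries.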

Additional observations from a re-analysis of the deposited data

Results flagged for a closer look

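In groups of 5 or 4 libraries, 396 groups of members' values were examined for a library far from the others by Dixon's criterion, and 16 (4.04%) held one, where chance gives about 1 in 20. In the chaperone arm, HT fluoxetine female 4 had the lowest Hspa5 of its group at 8066 normalised counts. WT fluoxetine female 4 stood apart for Hsp90b1 at 10061 and for Pdia4 at 1491.7. WT vehicle male 1 stood apart for Calr at 10458, HT vehicle male 3 for Dnajb9 at 851.95 and WT lithium male 2 for Dnajb11 at 1933.4. Pdia6 was at 2551.5 in HT lithium female 2 and at 2985.3 in WT fluoxetine male 2, each apart from its group.

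Among sensors, Ern1 was at 405.18 in WT fluoxetine male 3 and Eif2ak3 at 762.92 in HT fluoxetine female 2. In degradation and translocation, Syvn1 was at 1342.1 in HT fluoxetine female 5 and at 1443 in HT fluoxetine male 1, and Ssr1 at 4061.7 in WT vehicle female 1. In the ATF4 arm, Atf3 was at 46.612 in HT fluoxetine male 1, and Chac1 at 154.06 in WT fluoxetine female 3 and 231.56 in WT lithium female 1.

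The response to fluoxetine differed between HT and WT, by the test of the difference, for Hyou1 (-0.24), Syvn1 (-0.29), Sesn2 (-0.26), Derl2 (0.18) and Sec61b (0.24). Of all genes 8.97% rose and 11.7% fell by that test, so members were not called more often than other genes. Within HT the response differed between females and males for Hyou1 (-0.40), Calr (-0.39), Pdia4 (-0.51), Syvn1 (-0.39), Derl2 (0.26), Sec61b (0.39) and Atf4 (0.24). There 6.59% of all genes rose and 8.59% fell. All 12 involve the HT fluoxetine females, whose libraries stood apart with the lithium libraries.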

How the results depend on the processing

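The rise of Xbp1 and Dnajc3 under fluoxetine kept its direction and passed the threshold without the HT fluoxetine females, whether or not the sexes were balanced, and with GC and length slopes, and that of Hspa5 passed, among these fits, in those without these females only (0.21 at adjusted p = 0.0736 with slopes). Counts below are members called, with the limma count of the report in brackets at first mention. The share of all genes called in each fit is not given with them, so a count alone does not set the members apart. Lithium against fluoxetine in HT females, sex by lithium, the values within each genotype and sex, the fits with balanced sexes and the correlations were chosen after seeing the data. Gene-level values limit what can be said of Xbp1 splicing, and Trib3 and Atf3 were too scarce for small differences to be detectable.

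Leaving out the HT fluoxetine females alone leaves the sexes unequal between the sides of these comparisons. The counts were then 4 for fluoxetine (15), 1 for fluoxetine in HT (17), 0 for genotype by fluoxetine (5), 0 for HT against WT over all treatments (4) and 0 for female against male (2). Syvn1 turned to 0.0024 for fluoxetine. With the sexes balanced by leaving out matching groups as well they were 11, 1, 0, 0 and 0 in the same order, and 17 for lithium against fluoxetine (18). Then Syvn1 turned to 0.026 for fluoxetine, Hyou1 to 0.025 and Atf4 to -0.012 for fluoxetine in HT, and Hyou1 to 0.028 for genotype by fluoxetine.

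With GC and length slopes of each library as covariates they were 4 for fluoxetine, 2 for fluoxetine in HT, 0 for genotype by fluoxetine, 2 for lithium (21), 2 for lithium in WT (20), 2 for lithium in HT (17), 5 for lithium against fluoxetine (18), 1 for HT against WT over all treatments, 0 for female against male, 0 for sex by fluoxetine in HT (7), 1 for sex by lithium in WT (0) and 2 for lithium against fluoxetine in HT females (1). In it Eif2ak3 turned to 0.10 for fluoxetine, 0.33 for lithium and 0.23 for lithium against fluoxetine. Dnajb9 turned to -0.045 for fluoxetine in HT, -0.086 for lithium and -0.088 for lithium against fluoxetine. Derl2 turned to -0.018 for fluoxetine in HT, -0.051 for genotype by fluoxetine, -0.15 for lithium, -0.15 for lithium against fluoxetine and -0.054 for sex by fluoxetine in HT. Hsp90b1 turned to -0.033 for fluoxetine in HT and -0.22 for lithium. For lithium Xbp1 turned to -0.18, Pdia3 to -0.096, Pdia6 to -0.11, Sel1l to 0.030 and Ddit4 to 0.21. For lithium against fluoxetine Dnajb11 turned to -0.028, Dnajc3 to -0.020, Herpud1 to 0.029 and Sesn2 to 0.11.

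Removing each library's trend over GC and length gave counts of 3 for genotype by fluoxetine, 1 for female against male and 2 for lithium against fluoxetine in HT females. Dnajb9 turned to -0.024 for fluoxetine in HT, -0.063 for lithium and -0.066 for lithium against fluoxetine, Eif2ak3 to 0.029 for lithium and 0.012 for lithium against fluoxetine, Hsp90b1 to -0.10 and Ddit3 to -0.23 for lithium, and Sesn2 to 0.083 for lithium against fluoxetine.

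Fitting only the groups compared gave 0 for fluoxetine in WT (2) and 0 for lithium against fluoxetine in HT females. Quantile normalisation gave 8 for genotype by fluoxetine, and Ssr1 turned to 0.048 for lithium. Median centring gave 0 for female against male, and a mean of at least 100 gave 2 for lithium against fluoxetine in HT females. edgeR gave 1 for fluoxetine in WT, 0 for female against male and 2 for lithium against fluoxetine in HT females, and DESeq2 gave 3 for the last. Same-numbered libraries share only a number, with a mean residual correlation of 0.0104 (-0.316 to 0.360). A replicate block gave 1 for female against male and 3 for HT against WT over all treatments, and changed no other count. The cause of these changes was not tested. No call changed with pseudocounts of 0.5 and 5, no filter or a robust variance prior.

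Leaving out each library in turn gave 15 to 16 for fluoxetine, 0 to 4 in WT, 14 to 17 in HT, 5 to 6 for genotype by fluoxetine, 20 to 22 for lithium, 18 to 22 in WT, 15 to 19 in HT, 17 to 19 for lithium against fluoxetine, 3 to 5 for HT against WT over all treatments, 0 to 3 for female against male, 6 to 8 for sex by fluoxetine in HT and 0 to 2 for lithium against fluoxetine in HT females.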
